A study of Mus musculus with 65 samples.

Results

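The comparison described here sets primary neural stem cells of old mice kept with doxycycline to the labelled time of 48 h against cells of the same mice kept with doxycycline to 18 h. Its members are 8 of the 65 bulk RNA-seq libraries of the series, 4 at each time, chosen by the group in their titles and paired by the animal number in the column names. The study followed partial reprogramming in cells from young and old mice, in stem cell medium and during differentiation, with and without induction of the factors Oct4, Sox2, Klf4 and Myc (OSKM). Cells came from the subventricular zone, the adult brain's largest neurogenic niche, of iOSKM transgenic mice, in which doxycycline switches on the factors.

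All 8 libraries carry the iOSKM genotype, come from the same 4 animals aged 25 months (animals 1 and 2 female, 3 and 4 male), and were grown on poly-D-lysine and laminin in stem cell medium with B27, EGF and bFGF and with doxycycline at 2 µg per ml. The groups are A18h_Dox_old and A48h_Dox_old. The labels do not say which promoter drives the transgene, where it lies, or whether the doxycycline clock starts at plating. The series has no group labelled as untreated at 48 h in stem cell medium, so time in culture and time with doxycycline cannot be told apart. Levels in 4 libraries of the same animals at 6 h with doxycycline (A06h_Dox_old) and 4 untreated libraries at 18 h (A18h_untr_old) are given as side values with no test. A further 8 libraries, at 18 h and 48 h in medium without EGF and bFGF and with doxycycline (D18h_Dox_old and D48h_Dox_old, same animals), serve to test whether a change over time differed between media. The labels name 1 animal per library. Libraries were paired by animal in the fits, so their p-values measure the spread of changes between 4 animals.

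As background, neural stem cells in growth factor medium divide and keep lineage options open. EGF and bFGF signal through receptor kinases to ERK, which drives D-type cyclins and Myc, and Myc in turn raises genes of ribosome assembly. Passage through the cell cycle brings first the replication genes and later the genes of mitosis. Plating exposes cells to a stiff surface, to which many cells answer with genes of actin and matrix driven by SRF and YAP. The subventricular stem cell itself is a type of astrocyte, and dividing progenitors in this zone can give neuroblasts, astrocytes or oligodendrocyte precursors.

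The 8 libraries held 78.7 to 100.3 M counts (M for mega), against 56.5 to 116.8 M counts over all 65. Levels in CPM (counts divided by the TMM-scaled library total in M) are given in the order of animals 1 to 4, means are given ± SD (n = 4), differences are log2 fold changes of 48 h over 18 h ± SE, and adjusted p-values come from edgeR's quasi-likelihood test with Benjamini-Hochberg adjustment. Of 16857 genes tested, 4764 were called higher at 48 h (28.3%) and 4913 lower (29.1%) at an adjusted p under 0.05, 57.4% in all. The 2 groups did not overlap for 8103 genes (48.1%). Most calls were small, with 7337 of 9677 under 1.5-fold and a median size of 0.31 among called genes. At least 2-fold changes were rarer, with 665 genes higher (3.94%) and 329 lower (1.95%). The median over all tested genes was 0.01 and the median SE 0.05. Counts of list members below are to be read against these shares. In all, 10 measures of the libraries were compared by unpaired exact two-sided permutation tests of 4 against 4, whose smallest possible p is 0.0286. That value was reached by 5 of the 10, which adjusts to 0.0572: the number of features with a count, the TMM factor (0.994 against 1.03) and the summed microglia, fibroblast and ependymal markers given below. Library totals (means of 87.5 M and 93.1 M, exact p = 0.257, adjusted 0.321), the mitochondrial share (1.45% against 1.31%, exact p = 0.429, adjusted 0.477) and the share on features overlapping ribosomal RNA (1.74% against 1.69%, exact p = 0.886, adjusted 0.886) did not differ beyond the spread between libraries. The number of features with a count was 19949.8 at 18 h and 20236 at 48 h on average. The stem and progenitor markers Sox2, Nes, Sox9, Egfr and Fabp7 were at 110.3 CPM or more in every library of both groups. In bulk samples a change in the share of cells of a type and a change in RNA per cell cannot be told apart.

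The largest falls among named genes were those of a cytoskeletal linker, collagen VI chains and a thrombospondin of the matrix, smooth muscle actin, a growth factor receptor and a cytokine. The rule for the 12 named here took the largest falls past the test, where the mean reached 5 CPM, every animal changed the same way and the groups did not overlap. Periplakin, a plakin that links intermediate filaments to junctions, is encoded by Ppl (ENSMUSG00000039457, chromosome 16, 5086291 to 5132421). Ppl lay at 11.9, 5.18, 13.8 and 8.39 CPM at 18 h and 0.183, 0.2005, 0.298 and 0.106 CPM at 48 h (-5.64 ± 0.16, adjusted p = 1.58e-11). Every 18 h library of Ppl was far above every 48 h library. The collagen VI chain gene Col6a2 (ENSMUSG00000020241, chromosome 10, 76595762 to 76623630) lay at 23.2, 15.6, 29.3 and 17.6 CPM at 18 h and 0.792, 0.802, 1.19 and 0.803 CPM at 48 h (-4.56 ± 0.09, adjusted p = 5.92e-14). Its partner chain Col6a1 (ENSMUSG00000001119, chromosome 10, 76708792 to 76726168) lay at 55.9, 38.5, 61.6 and 40.8 CPM at 18 h and 7.06, 4.39, 7.903 and 5.74 CPM at 48 h (-2.97 ± 0.05, adjusted p = 2.71e-14). Both chains were lower in animals 2 and 4 than in animals 1 and 3 at 18 h, and no 18 h library reached the 48 h range. Smooth muscle actin, Acta2 (ENSMUSG00000035783, chromosome 19, 34241090 to 34255590), lay at 43.6, 22.1, 31.5 and 37.4 CPM at 18 h and 1.96, 2.04, 1.601 and 2.43 CPM at 48 h (-4.04 ± 0.18, adjusted p = 3.20e-05). Its mean level was 136 CPM at 6 h and 38.6 CPM in untreated cells at 18 h. The galectin gene Lgals3, which encodes a carbohydrate-binding protein, lay at 11.5, 5.97, 12.6 and 7.73 CPM at 18 h and 0.752, 0.445, 0.717 and 0.552 CPM at 48 h (-3.92 ± 0.10, adjusted p = 8.14e-13). The calcium-binding gene S100a6 lay at 12.5, 7.51, 15.9 and 10.2 CPM at 18 h and 0.803, 0.613, 1.004 and 0.832 CPM at 48 h (-3.81 ± 0.10, adjusted p = 8.14e-13). For Ppl, Col6a2, Lgals3 and S100a6 no 48 h library was above 1.19 CPM.

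Thbs2, which encodes the matrix protein thrombospondin, lay at 22.8, 13.6, 17.3 and 16.1 CPM at 18 h and 2.95, 1.59, 1.98 and 1.81 CPM at 48 h (-3.07 ± 0.07, adjusted p = 2.16e-13). Met, the receptor for hepatocyte growth factor, lay at 14.3, 5.73, 12.9 and 10.6 CPM at 18 h and 1.37, 0.5903, 1.38 and 1.13 CPM at 48 h (-3.28 ± 0.09, adjusted p = 8.14e-13). Hmga2, a chromatin architecture protein known for its role in self-renewal of young neural stem cells, lay at 93.5, 36.9, 78.8 and 58.2 CPM at 18 h and 9.79, 5.15, 8.48 and 7.66 CPM at 48 h (-3.07 ± 0.07, adjusted p = 4.38e-10). These 3 genes were lowest in animal 2 at 18 h and again at 48 h. Vgf, which encodes a secreted neuropeptide precursor, lay at 31.8, 12.7, 32.7 and 17.3 CPM at 18 h and 2.46, 2.64, 2.54 and 3.01 CPM at 48 h (-3.06 ± 0.36, adjusted p = 0.00537). Clcf1, a cardiotrophin-like cytokine, lay at 16.96, 4.68, 11.9 and 7.74 CPM at 18 h and 1.52, 0.445, 2.15 and 1.12 CPM at 48 h (-2.98 ± 0.17, adjusted p = 1.93e-06). Aldh1a3, an enzyme that makes retinoic acid, lay at 80.01, 35.5, 67.4 and 57.002 CPM at 18 h and 6.16, 2.49, 5.31 and 3.42 CPM at 48 h (-3.80 ± 0.06, adjusted p = 7.60e-14). In all, 10 of the 12 genes had a higher mean at 6 h than at 18 h, among them Aldh1a3 at 352 CPM and Vgf at 263 CPM, the exceptions being Ppl at 3.25 CPM and Thbs2 at 14.2 CPM.

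Genes known from glia were among the largest rises. Mmd2 (ENSMUSG00000039533, chromosome 5, 142562358 to 142608800), a membrane protein of the PAQR family, lay at 3.11, 3.11, 4.79 and 3.46 CPM at 18 h and 24.3, 29.3, 27.7 and 32.3 CPM at 48 h (2.98 ± 0.12, adjusted p = 6.71e-07). Gpr17, a receptor of committed oligodendrocyte precursors, lay at 2.403, 2.43, 4.38 and 4.19 CPM at 18 h and 15.7, 25.4, 33.8 and 29.2 CPM at 48 h (2.96 ± 0.10, adjusted p = 2.20e-09). Pla2g7, the plasma platelet-activating factor acetylhydrolase, lay at 3.59, 3.76, 2.7001 and 6.05 CPM at 18 h and 24.3, 29.6, 28.04 and 29.9 CPM at 48 h (2.82 ± 0.19, adjusted p = 2.81e-04). In these 3 genes the lowest 48 h library stood well above the highest 18 h library. S100b, a calcium-binding protein of glia, lay at 3.65, 4.39, 4.45 and 4.19 CPM at 18 h and 15.7, 17.4, 22.01 and 18.5 CPM at 48 h (2.14 ± 0.07, adjusted p = 4.38e-12). Ntsr2, the neurotensin receptor of astrocytes, lay at 2.45, 1.85, 1.61 and 3.12 CPM at 18 h and 6.35, 8.71, 9.37 and 15.3 CPM at 48 h (2.12 ± 0.19, adjusted p = 1.09e-04). Animals 3 and 4 had the 2 highest 48 h levels of S100b and Ntsr2. Apoe (ENSMUSG00000002985, chromosome 7, 19696109 to 19699188), the lipid carrier secreted by astrocytes, lay at 16.6, 7.46, 12.97 and 12.2 CPM at 18 h and 57.02, 50.3, 61.1 and 50.04 CPM at 48 h (2.18 ± 0.19, adjusted p = 0.00177). Aldh1a1, like Aldh1a3 an enzyme that makes retinoic acid but changed the other way, lay at 5.66, 8.62, 6.46 and 6.03 CPM at 18 h and 30.9, 29.6, 29.9 and 26.2 CPM at 48 h (2.13 ± 0.10, adjusted p = 2.99e-07). Spon1, the matrix protein F-spondin, lay at 32.9, 63.3, 43.9 and 43.999 CPM at 18 h and 157, 194, 172 and 171 CPM at 48 h (1.94 ± 0.12, adjusted p = 2.75e-04). The 48 h libraries of these 3 were close together, while animal 2 was the lowest for Apoe and the highest for Aldh1a1 and Spon1 at 18 h. Itih5 (2.65 ± 0.09), a hyaluronan-binding matrix protein, Als2cl (2.49 ± 0.07) and Tmem132b (1.92 ± 0.06) were also among the 12. Of the 12, 5 had a higher mean at 6 h than at 18 h.

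**Figure D1:**
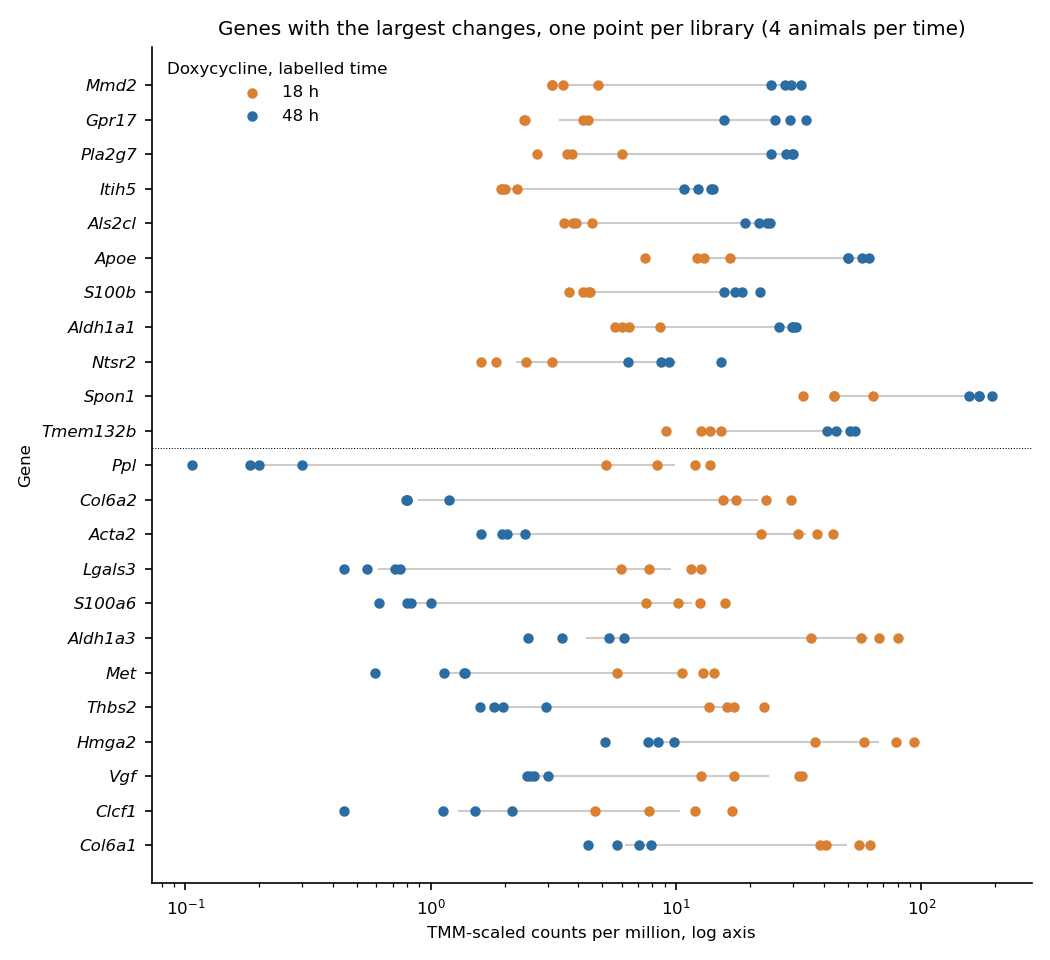
TMM-scaled CPM on a log axis of 11 of the 12 rising and the 12 falling genes named by rule, 1 point per library, orange at 18 h and blue at 48 h, with a grey line between the group means. In none of the genes drawn do the points of the 2 times overlap, which the rule required.

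The rest of the genes are given by function, in 45 lists. All 30 tested mitosis genes were higher at 48 h and all 30 ribosome biogenesis genes, 19 cytosolic aminoacyl-tRNA synthetase genes and 25 proteasome genes were lower. The lists were written from general knowledge with earlier results of these data known, so their counts are descriptions and no list was tested as a set.

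**Figure D2:**
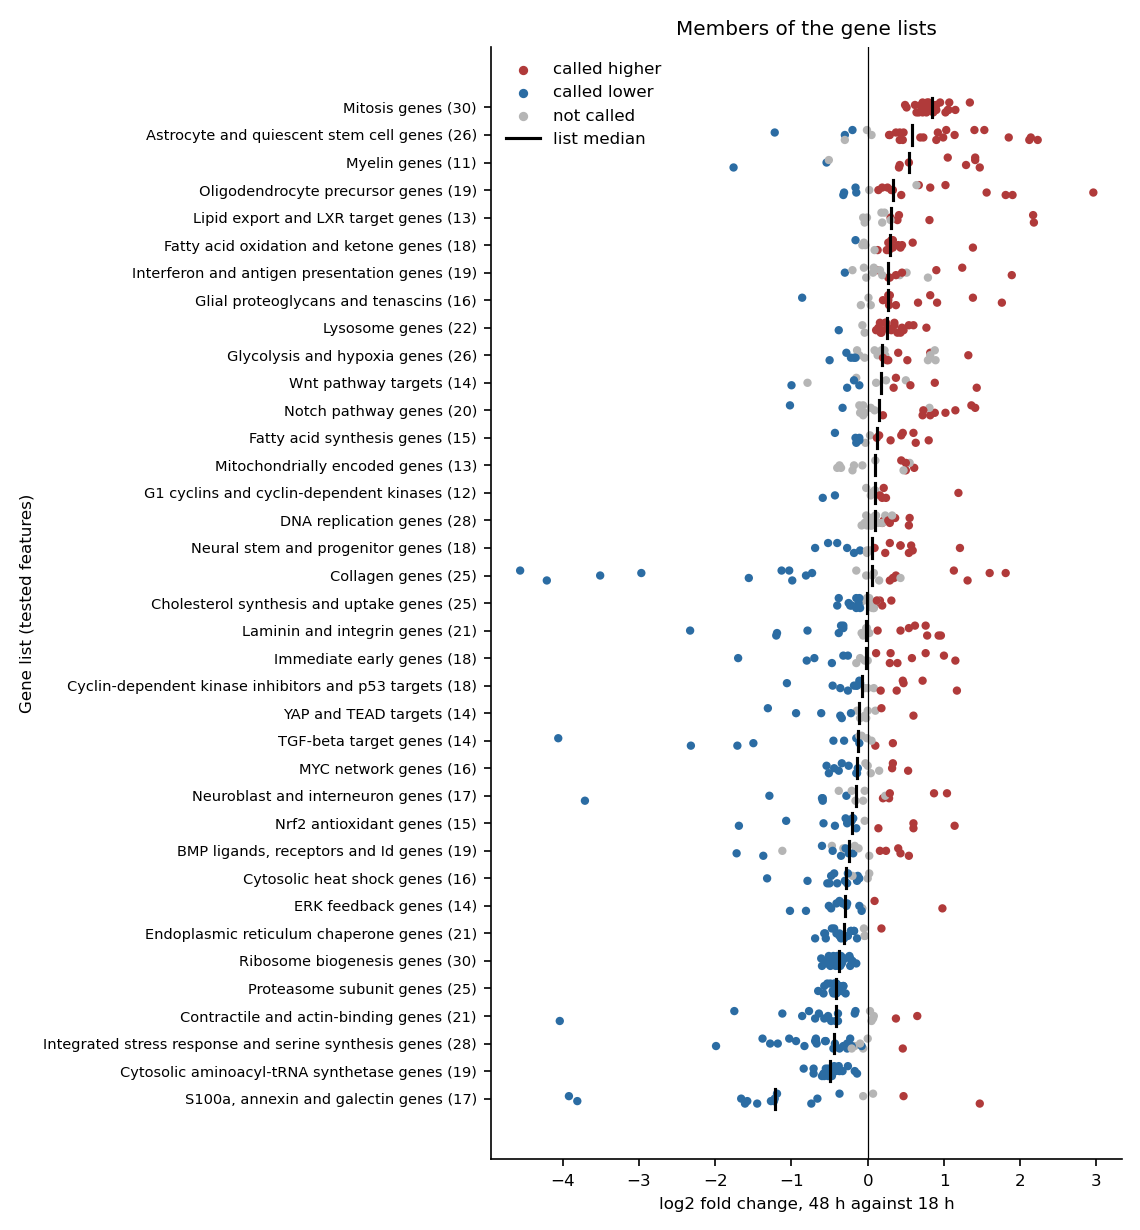
Log2 fold change of 48 h over 18 h (x axis) of every tested member of the lists with 11 or more tested features, sorted by the list median (black bar). Red points are called higher, blue points called lower and grey points not called. The mitosis genes, with a median of 0.84, and the S100a, annexin and galectin genes, with a median of -1.22, mark the ends.

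Mitosis genes rose together. All 30 tested members were called higher, 6 of them by at least 2-fold, against 28.3% and 3.94% of all genes, with a median of 0.84 and a range of 0.49 to 1.34. Each was higher in every animal, and the groups of all 30 did not overlap. Ccnb2 (ENSMUSG00000032218, chromosome 9, 70407692 to 70421547), a B-type cyclin that drives entry into mitosis, lay at 20.6, 28.1, 21.8 and 30.99 CPM at 18 h and 61.4, 66.4, 60.3 and 66.3 CPM at 48 h (1.34 ± 0.08, adjusted p = 1.07e-05). Cdca3, which helps to trigger mitotic entry, lay at 44.3, 53.9, 38.1 and 54.7 CPM at 18 h and 107, 106, 99.2 and 108 CPM at 48 h (1.15 ± 0.08, adjusted p = 5.43e-05). Cenpa, the histone of the centromere, lay at 38.7, 50.3, 34.4 and 51.9 CPM at 18 h and 90.2, 88.9, 91.01 and 94.8 CPM at 48 h (1.07 ± 0.12, adjusted p = 0.00251). Aspm, a spindle pole protein of dividing progenitors, lay at 66.96, 85.98, 62.04 and 101 CPM at 18 h and 171, 158, 157 and 164 CPM at 48 h (1.06 ± 0.16, adjusted p = 0.00998). At 18 h animals 1 and 3 were below animals 2 and 4 in all 4 genes, and at 48 h the 4 animals were close.

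Mitotic promoters often carry CCAAT boxes, bound by NF-Y, and the CHR element, where the DREAM complex and the MuvB-Myb-FoxM1 complex act in turn. Windows from 250 bases before to 50 bases after the start were taken from RefSeq (GRCm38.p6) for 25 of the 30 genes, and both strands were searched. TTTGAA, the letters of the CHR, was found in 20 of the 25 (80%) against 20.2% of all 27025 genes with a window. CCAAT was found in 22 of the 25 (88%) against 41.1%. These 2 motifs were chosen after the values were seen, and a match is a description of letters. The windows of the 2 members with the largest changes are shown because both hold repeated CCAAT boxes and a CHR, given in capitals (ATTGG where CCAAT lies on the other strand), for Ccnb2 (chr9:70421505-70421804, minus strand) and Cdca3 (chr6:124829926-124830225, plus strand).
Ccnb2: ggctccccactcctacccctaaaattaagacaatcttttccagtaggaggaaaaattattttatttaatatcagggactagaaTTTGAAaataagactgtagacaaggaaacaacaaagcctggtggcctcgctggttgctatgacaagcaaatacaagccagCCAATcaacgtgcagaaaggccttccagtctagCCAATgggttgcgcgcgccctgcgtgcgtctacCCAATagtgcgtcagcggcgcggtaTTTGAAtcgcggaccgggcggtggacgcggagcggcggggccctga
Cdca3: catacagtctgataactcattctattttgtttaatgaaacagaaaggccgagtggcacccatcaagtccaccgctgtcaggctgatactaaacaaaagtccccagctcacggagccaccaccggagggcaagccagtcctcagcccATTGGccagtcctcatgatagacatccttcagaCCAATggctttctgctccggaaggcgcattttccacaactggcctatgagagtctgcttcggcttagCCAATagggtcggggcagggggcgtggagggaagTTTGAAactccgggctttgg
In Ccnb2 the 3 boxes begin 87, 54 and 21 bases before the start, 33 bases apart. In Cdca3 the 3 boxes begin 104, 71 and 4 bases before the start, the first pair of them also 33 bases apart. The CHR letters begin 167 bases before and 4 bases after the start in Ccnb2 and 30 bases after it in Cdca3.

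The spread between animals in the mitosis genes was wider at 18 h than at 48 h. Over the 30 mitosis genes the median SD between animals on the log2 scale was 0.26 at 18 h and 0.06 at 48 h, against 0.09 and 0.07 over all tested genes. Animals 1 and 3 held the 2 lowest 18 h levels in 30 of 30 mitosis genes and in 28 of 28 replication genes, which was so in 22.0% of all tested genes. At 48 h the same held for 5 of the 30 and 0 of the 28. The split of animals was noticed in these values, and neither it nor its cause was tested (animals 1 and 2 are female, 3 and 4 male). In the 12 genes with the largest falls the same animals held the 2 highest 18 h levels in 11, against 21.3% of all genes, and at 48 h still in 7 (58.3%, against 17.2% of all genes). The median SD of these 12 genes was 0.49 at 18 h and 0.25 at 48 h. Relative to the 18 h mean, the median mitosis gene lay at -0.19, 0.17, -0.27 and 0.24 (log2) in animals 1 to 4 at 18 h and at 0.86, 0.80, 0.75 and 0.83 at 48 h. At 6 h it lay at 0.08, 0.49, -0.02 and 0.21, and in untreated cells at 18 h at 0.04, 0.42, -0.01 and 0.41. Mean levels of 27 of the 30 genes were higher at 6 h than at 18 h, and the 18 h library with doxycycline had the lowest median of the animal's 4 libraries in animals 1, 2 and 3 but not in animal 4, whose 6 h median was lower.

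Replication genes moved less. Of 28 tested members, 8 were called higher (28.6% against 28.3% of all genes) and none lower, with a median of 0.09. Rrm1, the large subunit of ribonucleotide reductase, lay at 227, 278, 224 and 282 CPM at 18 h and 387, 369.7, 359 and 358 CPM at 48 h (0.55 ± 0.09, adjusted p = 0.00479). Tk1, the thymidine kinase of S phase, lay at 46.6, 60.9, 47.2 and 59.7 CPM at 18 h and 81.1, 76.7, 76.6 and 75.3 CPM at 48 h (0.54 ± 0.10, adjusted p = 0.00954). Pole (0.36 ± 0.08) and Lig1 (0.34 ± 0.05) also rose, while the helicase subunits Mcm2 (-0.01 ± 0.04) and Mcm3 (-0.04 ± 0.05), looked up after the values were seen, did not pass. Without animal 1, 3 members were called lower. All 28 had a lower mean at 6 h than at 18 h, unlike the mitosis genes.

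**Figure D3:**
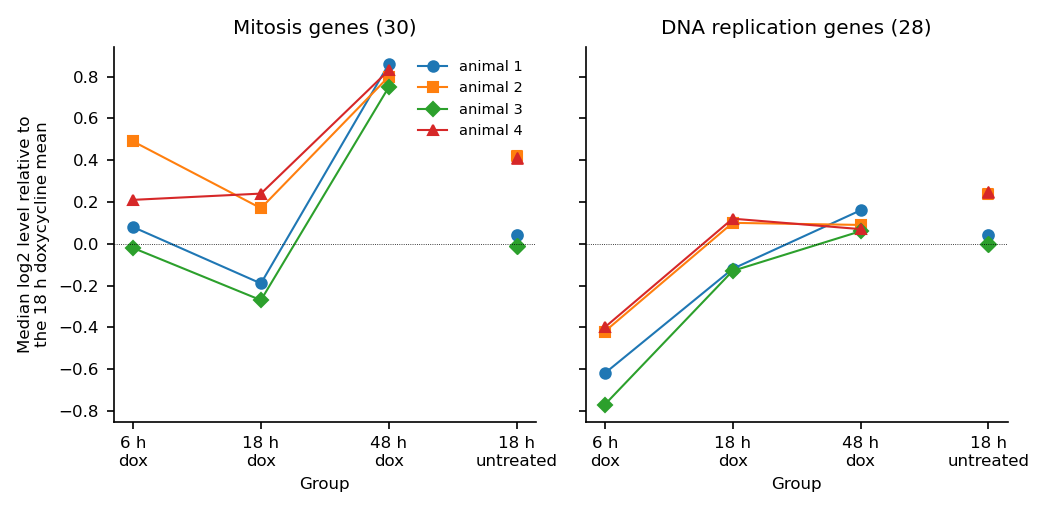
Median log2 level of the 30 mitosis genes (left) and the 28 replication genes (right) in each library, relative to each gene's mean at 18 h with doxycycline (y axis), by group (x axis), 1 marker shape and colour per animal. Animals 1 and 3 lie at -0.19 and -0.27 for mitosis at 18 h with doxycycline, and all animals lie between 0.75 and 0.86 at 48 h.

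Among 12 G1 cyclins, kinases, E2F and pocket protein genes 5 rose and 2 fell. Cdk6 rose from 15.6 ± 3.59 CPM at 18 h to 35.2 ± 3.32 CPM at 48 h (1.19 ± 0.08, adjusted p = 5.32e-06). The D-type cyclins fell, Ccnd1 from 3104 ± 224 CPM at 18 h to 2069 ± 175 CPM at 48 h (-0.59 ± 0.03, adjusted p = 8.69e-10) and Ccnd2 from 2067 ± 126 CPM at 18 h to 1538 ± 106 CPM at 48 h (-0.43 ± 0.03, adjusted p = 3.49e-08). No Ccnd1 or Ccnd2 library at 48 h reached the lowest 18 h library. Cdk2 rose by 0.24 ± 0.04. Without animal 1, and again without animal 3, 3 of the 12 rose. Of 18 CDK inhibitor and p53 target genes 6 rose and 9 fell, with a median of -0.07. Cdkn1c, the inhibitor p57, lay at 1.58, 2.12, 2.51 and 1.73 CPM at 18 h and 2.88, 5.32, 4.69 and 5.07 CPM at 48 h (1.17 ± 0.12, adjusted p = 1.28e-06). Plk2, a kinase induced by stress and p53, lay at 326, 330.5, 312 and 320.3 CPM at 18 h and 153, 165, 147 and 154 CPM at 48 h (-1.06 ± 0.03, adjusted p = 1.03e-12). The inhibitor p18, Cdkn2c, changed by 0.47 ± 0.04 and the apoptosis gene Pmaip1 by 0.72 ± 0.09.

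Genes that build and supply the translation machinery fell together by small amounts. All 30 ribosome biogenesis genes were called lower (29.1% of all genes were), with a median of -0.38 and a range of -0.61 to -0.15, none by 2-fold. Rrp9, a component of the U3 particle that processes ribosomal RNA, lay at 46.1, 42.1, 41.6 and 46.6 CPM at 18 h and 29.4, 28.9, 28.8 and 28.8 CPM at 48 h (-0.61 ± 0.04, adjusted p = 9.14e-09). Bop1, which assembles the large subunit, lay at 104, 97.2, 101 and 106 CPM at 18 h and 66.7, 65.5, 67.8 and 68.5 CPM at 48 h (-0.60 ± 0.03, adjusted p = 6.40e-10). The nucleolar chaperone Npm1 (-0.52 ± 0.03) and the helicase Ddx21 (-0.54 ± 0.03) fell as well. Npm1 has many processed copies in the genome, so its count is less certain than the others. All 30 had a higher mean at 6 h than at 18 h, as in Rrp9 with 84.997 CPM. CACGTG, the letters of the E-box bound by Myc, was found for 6 of 25 list genes with a window (24%) against 8.09% of all genes. Rrp9, Bop1, Npm1 and Ddx21 were not among the 6. In the MYC network 9 of 16 fell and 3 rose. The spermidine synthase gene Srm lay at 106, 105, 107 and 111 CPM at 18 h and 76.3, 74.6, 74.01 and 77.4 CPM at 48 h (-0.51 ± 0.03, adjusted p = 2.87e-09) and the nucleotide kinase gene Nme1 changed by -0.54 ± 0.03. Mycl rose from 15.7 ± 0.458 CPM at 18 h to 22.6 ± 0.717 CPM at 48 h (0.53 ± 0.05, adjusted p = 1.60e-07) while Mycn fell from 3.32 ± 0.591 CPM at 18 h to 2.44 ± 0.502 CPM at 48 h (-0.44 ± 0.12, adjusted p = 0.00496), with overlapping groups.

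All 19 cytosolic aminoacyl-tRNA synthetase genes, which charge transfer RNAs with amino acids, were lower, with a median of -0.50. The arginine enzyme Rars lay at 158, 146, 157 and 153 CPM at 18 h and 87.2, 85.9, 81.3 and 89.3 CPM at 48 h (-0.84 ± 0.03, adjusted p = 5.39e-11). The isoleucine enzyme Iars (-0.71 ± 0.03), the asparagine enzyme Nars (-0.71 ± 0.03) and the threonine enzyme Tars (-0.60 ± 0.03) followed. All 19 had groups that did not overlap. All 25 proteasome subunit genes were lower too, with a median of -0.41 and a range of -0.65 to -0.29. Psma7, a subunit of the core ring, lay at 171, 161, 169 and 170.4 CPM at 18 h and 102, 110.1, 106 and 109 CPM at 48 h (-0.65 ± 0.03, adjusted p = 6.32e-10). The core subunit gene Psmb3 (-0.53 ± 0.03), the ATPase gene Psmc2 (-0.58 ± 0.03) and Psmd14 (-0.57 ± 0.03), a deubiquitinase of the lid, fell too, and all 25 had groups that did not overlap. Of 16 heat shock genes 13 fell and none rose. Hspd1, the mitochondrial chaperonin, changed by -0.48 ± 0.03, Hsph1 by -0.50 ± 0.03 and the co-chaperone gene Bag3 by -0.53 ± 0.09. The small chaperone gene Hspb8 had the list's largest change, from 7.79 ± 1.89 CPM at 18 h to 3.096 ± 0.64998 CPM at 48 h (-1.32 ± 0.09, adjusted p = 6.86e-09).

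Integrated stress response and serine synthesis genes, many of them ATF4 targets, fell in 22 of 28 features and rose in 1, with a median of -0.44 and 5 falls of at least 2-fold. Ddit3 has 2 features in the table and counts as 2. Trib3 (ENSMUSG00000032715, chromosome 2, 152337422 to 152344032), a pseudokinase induced by ATF4, lay at 7.61, 9.902, 9.36 and 6.74 CPM at 18 h and 2.09, 2.12, 2.196 and 1.98 CPM at 48 h (-1.99 ± 0.09, adjusted p = 2.07e-10). Chac1, which degrades glutathione, lay at 9.02, 11.2, 11.1 and 9.44 CPM at 18 h and 4.196, 4.31, 3.86 and 4.32 CPM at 48 h (-1.28 ± 0.08, adjusted p = 5.73e-09). Nupr1 (-1.38 ± 0.10) and Atf3 (-1.18 ± 0.14), both transcription regulators of the stress response, fell as well. At 6 h Trib3 and Chac1 had means of 18.7 and 30.1 CPM. The letters TGATGNAA of the ATF4 element were found for 8 of 26 list genes with a window (30.8%) against 4.51% of all genes. The Trib3 window is shown because this member changed most and holds 1 match, in capitals on the other strand, 14 bases after the start (chr2:152344011-152344310, minus strand).
Trib3: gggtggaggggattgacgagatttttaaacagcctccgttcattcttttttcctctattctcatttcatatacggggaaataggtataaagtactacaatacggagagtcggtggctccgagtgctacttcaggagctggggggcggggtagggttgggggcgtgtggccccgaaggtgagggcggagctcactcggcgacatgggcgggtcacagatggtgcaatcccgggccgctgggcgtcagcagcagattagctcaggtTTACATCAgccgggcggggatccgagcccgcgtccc
The 8 genes with a match included Chac1, Nupr1 and Atf3.

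Of 21 endoplasmic reticulum chaperone and quality control genes 17 fell and 1 rose, with a median of -0.31. Xbp1, the transcription factor of the unfolded protein response, lay at 51.4, 47.2, 52.5 and 55.2 CPM at 18 h and 31.2, 31.3, 31.4 and 33.7 CPM at 48 h (-0.69 ± 0.04, adjusted p = 1.17e-09). Calr (ENSMUSG00000003814, chromosome 8, 84841850 to 84846934), the calcium-binding chaperone calreticulin, lay at 977, 951, 948 and 950.4 CPM at 18 h and 629, 666, 633 and 679 CPM at 48 h (-0.55 ± 0.03, adjusted p = 2.21e-09). Herpud1 (-0.57 ± 0.05), which serves degradation, and Sec61b (-0.56 ± 0.04), part of the translocation channel, fell too. The endoplasmic reticulum stress element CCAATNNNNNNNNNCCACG, which begins with a CCAAT box, was found in 7 of 18 windows (38.9%) against 0.137% of all genes. The windows of Hspa5 (chr2:34771840-34772139, plus strand), the main chaperone of this compartment and chosen after its value was seen (-0.44 ± 0.03), and of Calr (chr8:84846882-84847181, minus strand) are shown because they carry the element in its 2 orientations, with both ends in capitals.
Hspa5: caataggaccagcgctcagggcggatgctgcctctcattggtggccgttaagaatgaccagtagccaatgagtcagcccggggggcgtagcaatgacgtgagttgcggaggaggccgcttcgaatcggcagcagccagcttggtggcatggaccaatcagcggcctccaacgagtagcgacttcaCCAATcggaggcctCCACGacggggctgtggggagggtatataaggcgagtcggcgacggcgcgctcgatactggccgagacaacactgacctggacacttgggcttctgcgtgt
Calr: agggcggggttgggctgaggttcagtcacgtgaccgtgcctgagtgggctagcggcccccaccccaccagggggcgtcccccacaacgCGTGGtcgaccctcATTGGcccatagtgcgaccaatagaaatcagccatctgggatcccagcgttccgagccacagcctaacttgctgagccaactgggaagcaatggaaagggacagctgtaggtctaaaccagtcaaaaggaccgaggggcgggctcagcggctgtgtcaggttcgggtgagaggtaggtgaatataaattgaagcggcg
The element begins 65 bases before the start in Hspa5 and 162 bases before it in Calr.

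Contractile and actin-binding genes, many of them SRF targets, fell in 15 of 21 and rose in 2, with a median of -0.42. Besides Acta2, Tagln lay at 8.92, 4.91, 7.64 and 7.44 CPM at 18 h and 2.05, 2.15, 2.097 and 2.17 CPM at 48 h (-1.75 ± 0.13, adjusted p = 3.63e-07). The calponin gene Cnn2 lay at 13.8, 11.5, 10.8 and 14.4 CPM at 18 h and 6.76, 6.87, 6.49 and 9.46 CPM at 48 h (-0.77 ± 0.07, adjusted p = 3.08e-07) and the tropomyosin gene Tpm2 changed by -0.86 ± 0.17, with overlapping groups. Means of 18 of the 21 were higher at 6 h than at 18 h, as in Cnn2 with 54.9 CPM. The CArG box was found for 4 of 19 list genes with a window (21.1%) against 1.81% of all genes. These were Cnn2, Srf (-0.17), Vcl (-0.16) and Myl9 (0.07, not called), while Acta2, Tagln and Tpm2 were not among them. YAP and TEAD targets were mixed, with 6 of 14 lower and 2 higher. The classic target Ccn2 lay at 7.15, 7.07, 5.72 and 5.22 CPM at 18 h and 3.08, 2.39, 2.42 and 2.25 CPM at 48 h (-1.31 ± 0.09, adjusted p = 1.48e-08). The receptor kinase Axl changed by -0.94 ± 0.15, a call lost without animal 4, and the coactivator TAZ, Wwtr1, by -0.61 ± 0.04. Amotl2 rose (0.60 ± 0.05).

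The S100a, annexin and galectin genes fell most as a list, with 13 of 17 lower, 10 of them by at least 2-fold against 1.95% of all genes, and a median of -1.22. S100a11 lay at 152, 108, 142 and 115 CPM at 18 h and 43.3, 35.6, 44.3 and 39.4 CPM at 48 h (-1.66 ± 0.04, adjusted p = 1.90e-12) and S100a4 at 3.28, 3.08, 3.72 and 2.91 CPM at 18 h and 1.17, 0.913, 1.28 and 0.919 CPM at 48 h (-1.61 ± 0.12, adjusted p = 2.41e-08). Annexins bind membranes in the presence of calcium, and Anxa1, Anxa2, Anxa5 and Anxa7, named after their values were seen, changed by -1.45, -1.23, -1.19 and -1.27. The 2 members that rose were S100a1 (1.47) and S100a13 (0.47), also named after the fact. S100b, which is in the astrocyte list, rose as given above.

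Collagen genes moved in both directions. Of 25 tested genes 10 fell, 7 by at least 2-fold, and 8 rose, 4 by at least 2-fold, with a median of 0.06. All 3 collagen VI chains fell, Col6a3 from 8.59 ± 3.45 CPM at 18 h to 0.442 ± 0.127 CPM at 48 h (-4.21 ± 0.38, adjusted p = 9.04e-04) beside Col6a1 and Col6a2. Col1a1, the chain of fibrillar collagen I, rose and lay at 2.198, 1.53, 1.66 and 1.66 CPM at 18 h and 4.81, 4.098, 3.77 and 4.66 CPM at 48 h (1.31 ± 0.10, adjusted p = 6.17e-08), with 1.04 CPM in untreated cells at 18 h. The partner chain Col1a2 (-1.56) fell, named after its value was seen. Integrins and laminins split evenly, with 8 of 21 higher and 8 lower. Itga3 lay at 8.32, 3.77, 7.54 and 4.57 CPM at 18 h and 1.62, 1.17, 1.15 and 0.803 CPM at 48 h (-2.33 ± 0.14, adjusted p = 3.59e-08). Itga7, the laminin receptor subunit, lay at 129.9, 67.998, 119.7 and 114 CPM at 18 h and 49.9, 36.2, 46.5 and 51.5 CPM at 48 h (-1.20 ± 0.09, adjusted p = 1.64e-04) and Itga8 changed by -1.19 ± 0.07. Lama2, a laminin chain, rose (0.93 ± 0.14).

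Glial proteoglycans rose in 12 of 16 and fell in 1, with a median of 0.27. Cspg5 (neuroglycan C) lay at 97.99, 131, 124 and 119 CPM at 18 h and 278, 318, 320.4 and 312 CPM at 48 h (1.38 ± 0.04, adjusted p = 8.14e-13). Bcan (brevican) lay at 302, 346, 339 and 334 CPM at 18 h and 557, 646, 667 and 620.1 CPM at 48 h (0.91 ± 0.03, adjusted p = 6.18e-12). Tnr, the tenascin of the oligodendrocyte lineage, changed by 0.82 ± 0.04. Its relative Tnc, a matrix protein of the stem cell niche, was the member that fell, at 1936, 1675, 1710.3 and 1689.9 CPM at 18 h and 1096, 968, 895 and 902 CPM at 48 h (-0.86 ± 0.03, adjusted p = 3.26e-11). No library of one time reached the range of the other in these 4 genes.

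Among signalling lists, TGF-beta pathway genes and targets fell in 8 of 14, 4 of them by at least 2-fold, and rose in 2 (0 without animal 2, 3 or 4, and 1 without the pairing or with DESeq2). Ltbp1, which stores latent TGF-beta in matrix, lay at 48.2, 24.5, 47.4 and 33.05 CPM at 18 h and 14.7, 11.5, 13.5 and 13.1 CPM at 48 h (-1.50 ± 0.14, adjusted p = 8.65e-04). The receptor gene Tgfbr2 changed by -0.45 ± 0.05, and the inhibitor Smad7 by 0.33 ± 0.13, a call lost without animal 2, 3 or 4 and with DESeq2.

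BMP ligands, receptors and Id genes fell in 8 of 19 and rose in 5. Id1 and Id2 encode inhibitors of bHLH factors and are direct BMP targets. Id2 lay at 92.2, 80.4, 102 and 71.4 CPM at 18 h and 25.8, 28.1, 27.7 and 22.7 CPM at 48 h (-1.72 ± 0.06, adjusted p = 8.61e-09). Id1 lay at 62.3, 52.6, 65.7 and 52.7 CPM at 18 h and 22.4, 23.6, 23.2 and 21.1 CPM at 48 h (-1.37 ± 0.05, adjusted p = 1.18e-09). No 48 h library of either gene reached its 18 h range, and their means at 6 h were 96.4 and 69.9 CPM. The BMP antagonist Chrdl1 fell (-0.60 ± 0.07) and the ligand Bmp7 rose (0.54 ± 0.05).

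Notch pathway genes rose in 9 of 20 and fell in 2 (4 without animal 4), with 4 rises of at least 2-fold. The receptor gene Notch3 lay at 66.02, 64.3, 67.7 and 62.3 CPM at 18 h and 133, 125, 133 and 135 CPM at 48 h (1.02 ± 0.03, adjusted p = 7.24e-12). Hes5, a Notch target that holds progenitors undifferentiated, lay at 5.09, 4.77, 7.95 and 5.86 CPM at 18 h and 13.2, 15.2, 15.5 and 16.2 CPM at 48 h (1.36 ± 0.10, adjusted p = 1.78e-06). Mfng, a glycosyltransferase that tunes ligand choice, lay at 4.79, 4.96, 5.42 and 5.75 CPM at 18 h and 13.7, 14.4, 14.2 and 13.3 CPM at 48 h (1.41 ± 0.07, adjusted p = 3.87e-10). Levels of these 3 were lower still at 6 h, Notch3 at 18.1, Hes5 at 1.41 and Mfng at 1.15 CPM. The ligand gene Jag1 went the other way, at 52.2, 48.1, 46.6 and 48.96 CPM at 18 h and 25.3, 24.6, 23.5 and 23.1 CPM at 48 h (-1.02 ± 0.04, adjusted p = 2.57e-11). Another target of the pathway, Hes1 (0.04 ± 0.04, adjusted p = 0.413), looked up after its value was seen, did not pass.

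ERK feedback genes, which damp growth factor signalling, fell in 11 of 14 and rose in 2 (1 without animal 3 or 4). Dusp4, a phosphatase of ERK, lay at 86.6, 84.5, 87.6 and 80.02 CPM at 18 h and 42.95, 43.2, 41.9 and 39.5 CPM at 48 h (-1.02 ± 0.03, adjusted p = 6.46e-12). Spred3 (-0.81 ± 0.08) and Phlda1 (-0.51 ± 0.12) fell too, a call lost without the filter on low counts. Il17rd (Sef) rose, at 7.16, 7.39, 7.09 and 7.78 CPM at 18 h and 14.6, 14.1, 14.4 and 14.8 CPM at 48 h (0.98 ± 0.06, adjusted p = 2.95e-09). Immediate early genes split, with 8 of 18 higher and 6 lower. Egr2 lay at 11.5, 12.1, 11.3 and 11.6 CPM at 18 h and 21.04, 26.005, 20.9 and 25.3 CPM at 48 h (0.999 ± 0.057, adjusted p = 1.65e-09) and Btg2, an antiproliferative gene of neural progenitors, at 42.6, 41.6, 44.6 and 38.7 CPM at 18 h and 90.2, 95.1, 88.8 and 96.4 CPM at 48 h (1.15 ± 0.05, adjusted p = 1.09e-09). Fosl1, an AP-1 subunit, lay at 14.3, 8.92, 13.1 and 11.002 CPM at 18 h and 3.74, 3.11, 3.42 and 4.14 CPM at 48 h (-1.70 ± 0.09, adjusted p = 6.31e-09). Egr3 rose as well (0.76 ± 0.05). Wnt targets rose in 5 of 14 and fell in 4. Apcdd1 (1.43 ± 0.09, adjusted p = 3.14e-09) and Nkd1 (0.88 ± 0.06, adjusted p = 2.41e-08), both inhibitors of the pathway, rose most, followed by Tcf7l1 (0.56 ± 0.06) and the receptor Lgr4 (0.37 ± 0.06).

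Metabolic lists moved by small amounts. Lysosome genes rose in 19 of 22 and fell in 1, with a median of 0.25. Hexa, a subunit of beta-hexosaminidase, lay at 67.5, 78.4, 71.9 and 75.6 CPM at 18 h and 119, 131, 120.3 and 131 CPM at 48 h (0.77 ± 0.03, adjusted p = 3.77e-11). Ctsb, the protease cathepsin B, lay at 154, 163, 163 and 148 CPM at 18 h and 227, 233, 232 and 222 CPM at 48 h (0.54 ± 0.03, adjusted p = 7.46e-10). The lysosomal protein progranulin, Grn (0.47 ± 0.03), rose as well. Fatty acid oxidation genes rose in 13 of 18 and fell in 1 (2 without animal 4). Pdk4, which diverts pyruvate from oxidation, lay at 0.501, 0.743, 0.728 and 0.688 CPM at 18 h and 1.64, 1.67, 1.85 and 1.74 CPM at 48 h (1.38 ± 0.16, adjusted p = 2.59e-06). Cpt1a, the entry step of mitochondrial fatty acid oxidation, lay at 71.96, 77.4, 78.4 and 72.3 CPM at 18 h and 122, 105, 121 and 104 CPM at 48 h (0.59 ± 0.05, adjusted p = 7.20e-07). Acadl (0.43 ± 0.04) followed. Ppara (0.45 ± 0.14) lost its call without animal 2 or 3.

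Lipid export genes rose in 6 of 13 with none lower. Apoe is given above, and the exporter Abcg1 lay at 2.08, 2.96, 2.17 and 1.85 CPM at 18 h and 3.72, 4.499, 4.58 and 3.13 CPM at 48 h (0.81 ± 0.10, adjusted p = 8.85e-06), after a mean of 0.1201 CPM at 6 h. Lpl (0.41 ± 0.05) and Clu (0.39 ± 0.05) also rose. Cholesterol synthesis genes did not move together, with 5 of 25 higher and 11 lower and a median of -0.01, the 11 becoming 6 without animal 3 and 7 without the pairing. Fdps fell (-0.40 ± 0.04), as did Hsd17b7 (-0.38 ± 0.04), and Dhcr7 rose (0.31 ± 0.03). All 25 were higher at 6 h than at 18 h, Fdps at 611 CPM. TCACNCCAC, a form of the sterol regulatory element, was found for 1 of 17 list genes with a window (5.88%) against 1.44% of all genes. Fatty acid synthesis genes rose in 8 of 15 and fell in 5. Those that rose included the elongase Elovl2 (0.63 ± 0.06), Thrsp (0.60 ± 0.04) and the desaturases Fads2 (0.46 ± 0.03) and Fads1 (0.44 ± 0.03).

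Of 15 Nrf2 antioxidant genes 10 fell and 4 rose. Srxn1, which repairs peroxiredoxins, lay at 46.2, 37.2, 46.7 and 38.7 CPM at 18 h and 21.9, 17.98, 21.8 and 18.4 CPM at 48 h (-1.07 ± 0.04, adjusted p = 1.63e-11), while Gsta4 rose from 7.77 ± 0.428 CPM at 18 h to 17.1 ± 0.864 CPM at 48 h (1.14 ± 0.06, adjusted p = 5.78e-10), as did Nqo1 (0.60 ± 0.06) and Gstm1 (0.60 ± 0.03). Glycolysis and hypoxia genes varied between animals, with 7 of 26 features higher and 5 lower, the 7 becoming 14 without animal 1 and 3 without the pairing, and the 5 becoming 1 without the pairing. Ndrg1, a hypoxia-induced gene, lay at 2.02, 1.63, 2.195 and 3.27 CPM at 18 h and 3.77, 5.23, 4.503 and 9.82 CPM at 48 h (1.32 ± 0.13, adjusted p = 2.39e-06). Animal 4 was the highest at both times. Ankrd37 (0.82 ± 0.14) rose, Egln3 (0.52 ± 0.12) lost its call without animal 4, without the pairing and without the filter on low counts, and Adm fell (-0.50 ± 0.10), a call lost without animal 4. Of 13 mitochondrially encoded genes 4 rose and none fell (2 without animal 4 and 1 without the pairing). The 4 that rose were mt-Atp8 (0.61 ± 0.08, adjusted p = 2.06e-05) and mt-Atp6 (0.50 ± 0.10, adjusted p = 0.00587), which overlap in the genome, mt-Nd3 (0.50 ± 0.04, adjusted p = 7.05e-08) and mt-Co3 (0.44 ± 0.07).

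Most astrocyte and oligodendrocyte precursor genes rose. Of 26 astrocyte and quiescent stem cell genes 20 rose, 8 by at least 2-fold, and 3 fell, with a median of 0.58. Agt, the angiotensin precursor that astrocytes make, lay at 3.23, 5.06, 3.84 and 3.56 CPM at 18 h and 11.5, 19.3, 12.99 and 13.1 CPM at 48 h (1.85 ± 0.07, adjusted p = 1.51e-11), beside S100b and Ntsr2 above. The astrocyte filament gene Gfap (-0.30 ± 0.18, adjusted p = 0.179), looked up after its value was seen, did not pass. Of 19 oligodendrocyte precursor genes 13 rose, 5 by at least 2-fold, and 4 fell, with a median of 0.33. The summed level of the 19 did not rise, with 3896 to 4214 CPM at 18 h and 3908 to 4011 CPM at 48 h. Sox10, a lineage transcription factor, lay at 0.977, 1.04, 2.44 and 2.396 CPM at 18 h and 3.48, 7.38, 5.66 and 8.798 CPM at 48 h (1.90 ± 0.27, adjusted p = 0.00246). Pdgfra, the growth factor receptor of precursors, lay at 3.44, 5.06, 5.999 and 6.897 CPM at 18 h and 7.09, 10.2, 10.8 and 15.3 CPM at 48 h (1.02 ± 0.07, adjusted p = 1.42e-08). C1ql1, a secreted complement-related protein, changed by 1.56 ± 0.20. Animal 1 was the lowest at both times for Sox10, Pdgfra and Gpr17. Of 11 myelin genes with enough counts 8 rose and 2 fell. The largest change of the list was a fall (-1.76), in a gene with a mean under 1 CPM that is not named. Mbp, the major myelin protein, lay at 0.411, 1.19, 0.7396 and 0.792 CPM at 18 h and 1.24, 2.33, 2.09 and 2.57 CPM at 48 h (1.41 ± 0.16, adjusted p = 2.21e-06). Cldn11 (1.29 ± 0.19), Gal3st1 (1.41 ± 0.16) and Aspa (1.47 ± 0.17) also rose, with means below 3 CPM at 48 h. Mag, Mog, Mal and Cldn14 did not pass the filter on low counts.

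Stem and progenitor genes rose in 9 of 18 and fell in 6. Prom1, a surface marker of neural stem cells, lay at 2.07, 2.296, 2.38 and 2.66 CPM at 18 h and 5.71, 4.77, 6.601 and 4.93 CPM at 48 h (1.21 ± 0.11, adjusted p = 2.71e-07). Egfr, the receptor that marks activated stem cells, lay at 330.3, 361, 315 and 349 CPM at 18 h and 558, 494, 476 and 486 CPM at 48 h (0.57 ± 0.05, adjusted p = 3.41e-06). Pax6 rose (0.59 ± 0.05). The filament gene Vim fell, at 2768, 2105, 2588 and 2356 CPM at 18 h and 1590.000, 1445, 1525 and 1482 CPM at 48 h (-0.69 ± 0.04, adjusted p = 5.25e-09). Neuroblast and interneuron genes split, with 5 of 17 higher (2 without the pairing) and 6 lower. Stmn2, a tubulin-binding protein of neurons, lay at 3.77, 2.34, 5.93 and 2.47 CPM at 18 h and 0.244, 0.2896, 0.309 and 0.223 CPM at 48 h (-3.71 ± 0.19, adjusted p = 5.67e-10). Celf4, an RNA-binding protein of neurons, changed by -1.29 ± 0.09. Gad1, which makes GABA, rose from 2.84 ± 0.478 CPM at 18 h to 5.88 ± 1.13 CPM at 48 h (1.04 ± 0.08, adjusted p = 5.87e-08), and Dcx, the microtubule protein of migrating neuroblasts, from 8.604 ± 2.78 CPM at 18 h to 15.6 ± 4.49 CPM at 48 h (0.87 ± 0.07, adjusted p = 2.96e-07), a call lost without the pairing.

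Markers of other cells were low. Of 12 microglia markers 3 were tested and 1 fell, P2ry12 from 1.94 ± 0.307 CPM at 18 h to 1.27 ± 0.2501 CPM at 48 h (-0.61 ± 0.13, adjusted p = 9.71e-04). Csf1r, looked up after its value was seen, was the highest of the tested microglia markers and did not pass (-0.09 ± 0.07). C1qa, C1qc and Tyrobp had 0 counts in all 8 libraries, which still allows an expected sum of up to about 3 read pairs per gene. Each pair can give 2 counts. The summed level of the 12 was 11.7 to 14.3 CPM at 18 h and 10.8 to 11.7 CPM at 48 h (exact p = 0.0286, adjusted 0.0572). The 11 endothelial and mural markers summed to 13.2 to 17.5 CPM at 18 h and 10.6 to 14.7 CPM at 48 h (exact p = 0.0571, adjusted 0.0952), with 6 tested and 2 lower (1 without animal 1 or 3, without the pairing or with DESeq2). Flt1 (-0.42 ± 0.08, lost without the pairing) was the called one above 1 CPM. The 10 fibroblast markers summed to 7.56 to 9.59 CPM at 18 h and 9.65 to 11.1 CPM at 48 h (exact p = 0.0286, adjusted 0.0572), with 4 tested and 2 higher (1 without animal 3 or without the pairing), among them Foxc1 (0.23 ± 0.07), which held most of the sum, with 7.78 and 9.11 CPM. Ependymal markers were higher, with 6 of 7 tested members higher and a sum of 30.4 to 37.5 CPM at 18 h and 51.4 to 56.6 CPM at 48 h (exact p = 0.0286, adjusted 0.0572). Foxj1, the regulator of motile cilia, lay at 21.2, 22.7, 19.2 and 16.9 CPM at 18 h and 34.03, 37.02, 33.1 and 33.2 CPM at 48 h (0.79 ± 0.05, adjusted p = 6.76e-09), and Rsph1 (1.15 ± 0.10), Dynlrb2 (1.18 ± 0.20) and Rarres2 (0.19 ± 0.06, lost without animal 2 or 4) rose with it. Without animal 4, 3 of the 7 rose. The ependymal and fibroblast sums were higher and the microglia and endothelial sums lower at 48 h, beside the rises of the glial lists above, and their part in those results was not tested.

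Interferon and antigen presentation genes rose in 8 of 19 and fell in 1. Psmb9, an immunoproteasome subunit, lay at 1.57, 1.94, 1.397 and 1.57 CPM at 18 h and 2.98, 3.29, 2.81 and 2.98 CPM at 48 h (0.90 ± 0.11, adjusted p = 5.05e-06), and the peptide transporter gene Tap1 (0.45 ± 0.05) and Stat2 (0.37 ± 0.05) rose too, while Gbp3 fell (-0.30 ± 0.06). Of 19 pluripotency genes, 6 passed the filter on low counts, 2 higher (1 without animal 1, 3 or 4 or without the pairing) and 2 lower (1 without animal 3). The largest change of the list was a rise (1.08). The 2 that rose had means under 1 CPM and are not named. Klf5 lay at 4.203, 4.15, 3.67 and 3.92 CPM at 18 h and 2.03, 1.87, 2.34 and 1.92 CPM at 48 h (-0.97 ± 0.11, adjusted p = 2.06e-06) and Klf2 changed by -0.50 ± 0.15, a call lost without animal 3. Of 14 epithelial and mesenchymal transition genes 4 were tested, 1 of them higher and 2 lower (0 without animal 1, 1 without animal 2 or 3 or with DESeq2), with Zeb1 higher (0.17 ± 0.03) and Zeb2 lower (-0.12 ± 0.04, lost without animal 1 or 3).

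Among the factors of the cassette, Sox2, Myc and Klf4 changed little between 18 h and 48 h, while Pou5f1 was called higher at a low level. Reads of each factor come from the endogenous gene, the cassette, or both, and the counts do not separate them. Pou5f1 (ENSMUSG00000024406, chromosome 17, 35506018 to 35510772), which encodes Oct4, lay at 0.206, 0.473, 0.458 and 0.458 CPM at 18 h and 0.437, 0.579, 0.596 and 0.861 CPM at 48 h (0.64 ± 0.24, adjusted p = 0.0329). The groups overlapped and each 48 h library was above the 18 h library of its animal. The level rests on 16 to 44 counts a library at 18 h and 43 to 89 at 48 h, and the call is lost without animal 1 or 4, without the pairing and with DESeq2. In untreated cells at 18 h Pou5f1 lay at 0.164, 0.171, 0.217 and 0.0786 CPM. Sox2 lay at 253, 251, 266 and 244 CPM at 18 h and 219, 229, 217 and 227 CPM at 48 h (-0.18 ± 0.03, adjusted p = 2.56e-04). Myc lay at 159, 162, 151 and 165 CPM at 18 h and 137, 149.8, 134 and 153 CPM at 48 h (-0.15 ± 0.03, adjusted p = 5.96e-04), and Klf4 at 8.64, 8.32, 7.95 and 9.18 CPM at 18 h and 7.65, 8.398, 7.01 and 7.74 CPM at 48 h (-0.15 ± 0.07, adjusted p = 0.0797). Sox2 and Myc fell, with groups that did not overlap for Sox2, and Klf4 did not pass, though it did without animal 2 (-0.20). In untreated cells at 18 h the means of Sox2, Myc and Klf4 were 255, 173 and 8.03 CPM. With doxycycline at 18 h they were 253, 159 and 8.52 CPM, so these factors did not stand clearly above the untreated level. The mean of Pou5f1 at 18 h was higher with doxycycline (0.399 CPM) than without (0.158 CPM), which was not tested. Its level in animal 1 with doxycycline, 0.206 CPM, lay within the untreated range. The feature for the activator M2rtTA lay at 219, 208, 211 and 225 CPM at 18 h and 162, 173, 174 and 199 CPM at 48 h (-0.29 ± 0.04, adjusted p = 1.61e-05). The features for the P2A, T2A and E2A linkers held at most 2 counts in any of the 8 libraries.

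Genes picked as early doxycycline responders from earlier results of these data were followed as well, 4 in number. P2ry2, a nucleotide receptor, lay at 2.92, 1.204, 2.74 and 2.07 CPM at 18 h and 3.78, 3.65, 4.54 and 4.42 CPM at 48 h (0.92 ± 0.17, adjusted p = 0.00167), with a mean of 1.601 CPM in untreated cells at 18 h. Slc29a3, a nucleoside transporter, lay at 35.7, 32.7, 33.3 and 32.7 CPM at 18 h and 38.8, 38.6, 40.1 and 39.7 CPM at 48 h (0.23 ± 0.04, adjusted p = 1.90e-04), with 23.9 CPM untreated. The acyltransferase gene Agpat4 was at 30.7 and 28.4 CPM against 17.2 CPM untreated (-0.11 ± 0.04, adjusted p = 0.0261), a call lost without the pairing, with DESeq2 and without animal 1, 3 or 4. Sorl1 changed by 0.11 ± 0.09 and did not pass, though it did without animal 4 (0.22). Levels of all 4 at 48 h stood above the untreated mean at 18 h, a comparison that joins time with doxycycline. The 4 were picked for a response to doxycycline in these data, so this is no separate evidence of it.

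**Figure D4:**
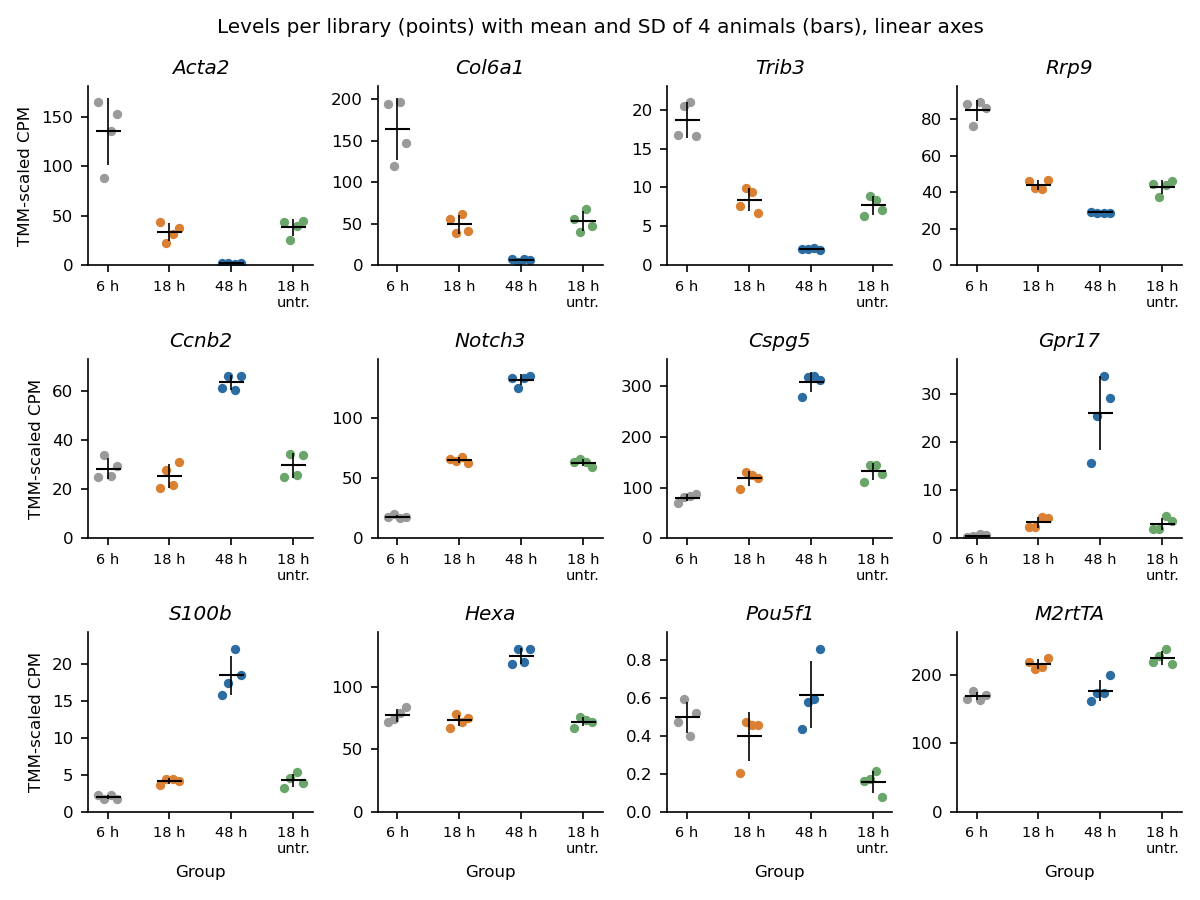
TMM-scaled CPM per library (points, linear axes from 0) for 12 genes at 6 h, 18 h and 48 h with doxycycline and at 18 h untreated, with the mean and SD of 4 animals (black bars). Acta2, Col6a1, Trib3 and Rrp9 are highest at 6 h, Ccnb2, Notch3, Cspg5, Gpr17, S100b and Hexa are highest at 48 h, and Pou5f1 at 0.618 CPM is above the untreated 0.158 CPM.

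To ask whether the change over time differed between media, the change from 18 h to 48 h was compared with the change between the same labelled times in differentiation medium. No library is shared between the 2 changes, and the test is of the difference itself, with animals as blocks over 16 libraries. Of 17738 genes, the change differed for 10378 (58.5%): 5058 changed more upward in stem cell medium (28.5%) and 5320 more downward (30.0%). In differentiation medium 5442 genes were higher at 48 h (30.7%) and 4733 lower (26.7%). Changes called in both media ran the same way for 2352 genes (13.3%; 1221 higher in both, 6.88%, and 1131 lower in both, 6.38%), and in opposite ways for 4055 genes whose difference was also called (22.9%), of which 1865 (10.5%) rose in stem cell medium.

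The mitosis, ribosome biogenesis and proteasome lists had medians of opposite sign in the 2 media, while the replication list did not, with 0.09 and 0.24 (15 higher and 4 lower in differentiation medium). All 30 mitosis genes differed upward in stem cell medium, while in differentiation medium none rose and 10 fell (median -0.45). Summed levels of the 30 were 113 to 129.8 CPM at 18 h and 96.9 to 112 CPM at 48 h in differentiation medium, against 2362 to 3364 and 4791 to 5230.5 CPM in stem cell medium. Ccnb2 changed by -0.80 there (difference 2.14 ± 0.22, adjusted p = 1.42e-06). All 30 ribosome biogenesis genes differed downward in stem cell medium, with 29 higher and none lower in differentiation medium (median 0.58), and Rrp9 changed by 0.69 there (difference -1.30 ± 0.08, adjusted p = 2.24e-11). Of the proteasome genes, 25 of 25 differed downward in stem cell medium and 20 were higher in differentiation medium. Endoplasmic reticulum chaperone genes split there, with 8 higher and 9 lower (median -0.03), and 17 of 21 differed downward in stem cell medium. Lysosome genes differed upward in 17 of 22, with 17 lower in differentiation medium. Notch genes differed upward in 14 of 20, and Hes5 changed by -1.30 in differentiation medium (difference 2.65 ± 0.16, adjusted p = 4.92e-08). Cholesterol genes differed downward in 21 of 25, with 22 higher in differentiation medium.

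The astrocyte, oligodendrocyte precursor and myelin lists had more members called higher than lower at 48 h in both media. Glial proteoglycans did not, with 5 higher and 8 lower in differentiation medium. Of the largest rises named above, Mmd2, Gpr17, Pla2g7, Itih5, Als2cl and Ntsr2 were also called higher there. S100b (-0.16), Apoe (0.19) and Spon1 (0.08) were not called there, and Aldh1a1 (-1.10) and Tmem132b (-0.56) were lower. Of 27 astrocyte and quiescent genes in this fit 18 were higher in differentiation medium, and 12 differed upward and 11 downward. Of 14 myelin genes in this fit 10 were higher there, with a median of 1.54, and 10 differed downward in stem cell medium. Mbp changed by 4.31 there (difference -2.93 ± 0.45, adjusted p = 3.04e-04). Mmd2 stood at 479, 494, 438 and 477 CPM at 18 h in differentiation medium, against at most 32.3 CPM at 48 h in stem cell medium, so its rise ended far below that level. Of the 12 named falling genes, 11 had a more negative change in stem cell medium by the test of the difference, among them Col6a2 (-3.30 ± 0.24, adjusted p = 4.01e-10), Acta2 (-3.12 ± 0.30, adjusted p = 1.92e-06), Lgals3 (-4.14 ± 0.28, adjusted p = 2.64e-10) and Met (-3.31 ± 0.22, adjusted p = 1.84e-10). The exception was Col6a1, with a log2 fold change of -2.87 in differentiation medium and a difference that did not pass (-0.11 ± 0.15, adjusted p = 0.58). At 18 h in differentiation medium Col6a2, Acta2, Lgals3 and Met already had low means of 1.01, 1.97, 0.588 and 0.808 CPM. Their means at 48 h in stem cell medium were 0.897, 2.01, 0.617 and 1.12 CPM. The 12 were named for their falls in stem cell medium, and those same values enter the difference.

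**Figure D5:**
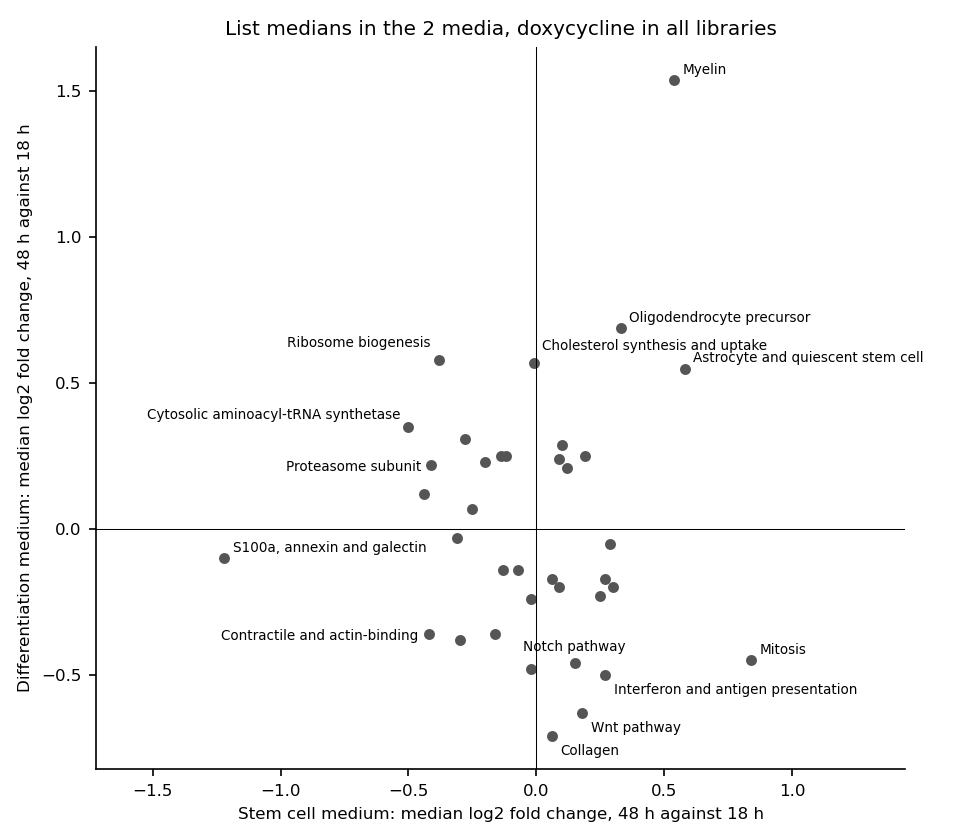
Median log2 fold change of 48 h over 18 h of each list with 11 or more tested features in stem cell medium (x axis) and in differentiation medium (y axis), doxycycline in all libraries, 1 point per list, some named. Mitosis genes lie at 0.84 and -0.45, ribosome biogenesis genes at -0.38 and 0.58, and myelin genes at 0.54 and 1.54.

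Single genes with the largest opposite changes were named by rule, 6 per direction. Rising in stem cell medium and falling in differentiation medium, Fbln2, a matrix fibulin, lay at 485, 614, 457 and 553 CPM at 18 h and 733, 913, 679 and 815 CPM at 48 h in stem cell medium. In differentiation medium Fbln2 lay at 112, 119.8, 96.5 and 119 CPM at 18 h and 10.3, 10.4, 10.5 and 8.52 CPM at 48 h (difference 4.06 ± 0.11, adjusted p = 1.29e-12). Nrgn, a calmodulin-binding protein of neurons, rose by 0.96 ± 0.04 in stem cell medium and changed by -2.94 in differentiation medium. Bmp3, a ligand of the BMP family, differed by 4.33, on stem cell medium levels under 1 CPM. Fmo1, Arhgef3 and Gbp9 complete this direction. Falling in stem cell medium and rising in differentiation medium, Map1b, the microtubule protein of growing neurites, lay at 239, 209, 271 and 223 CPM at 18 h and 88.5, 78.2, 88.6 and 86.02 CPM at 48 h in stem cell medium. In differentiation medium Map1b lay at 14.5, 15.5, 20.5 and 21.1 CPM at 18 h and 214, 159.7, 310.5 and 354 CPM at 48 h (difference -5.29 ± 0.25, adjusted p = 3.15e-08). S100a6 rose to 14.6 CPM in differentiation medium from 2.81 CPM and fell in stem cell medium as given above (difference -6.19 ± 0.24, adjusted p = 4.55e-11). Hspb8, Scg2, a secretory granule protein, Gabrg3, a GABA receptor subunit, and Dach2 complete this direction.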

How the data were processed

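Total RNA from cultured cells was sequenced after stranded mRNA library preparation as paired reads. Per the submitters' processing notes, reads were trimmed with Trim Galore 0.6.6, aligned with STAR 2.7.10b to mm10 and counted with Subread, and values were transformed with DESeq2 1.40.1. The deposited table of counts per feature is unnormalized and was used for every main result. Its values show that both mates of a pair were counted (75644 values of 2 against 19963 of 1), and the strand setting is not given in the sources used here. The authors' second table holds variance-stabilised log2 values and was used in an alternative. Names and coordinates came from GENCODE M21 (GRCm38) for 31011 of 31057 features.

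Libraries were grouped by title. Counts were tested in edgeR 4.0.16 (R 4.3.3) with TMM scaling over the 24 libraries used, filterByExpr at a minimum count of 10, a robust quasi-likelihood fit and an adjusted p under 0.05. Animal was a block because the same 4 animals gave both groups: deviations from the group means correlated at 0.46, 0.57, 0.54 and 0.55 within an animal over 16857 genes and at -0.42 to 0.26 between animals. The difference between media was fitted over 16 libraries with the same block. The scripts were tested on simulated data. Library measures were compared by exact permutation. Alternatives were the fit without the block, RLE scaling, TMM over the tested libraries alone, DESeq2 1.42.0, no filter, counts halved as fragments, limma 3.58.1 on the deposited log2 values, and each animal left out.

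Named genes were the 12 largest calls per direction with a mean of at least 5 CPM, the same direction in every animal and no overlap, leaving out predicted genes, up to 4 called members per list with a mean of at least 1 CPM, the cassette and early responder genes, and 6 per direction between media. The comparison, the 45 lists (812 symbols, 3 without a feature) and the tests were chosen with earlier results of these data known. Motifs were searched in RefSeq promoter windows (GRCm38.p6). A few genes that these rules select are not reported here.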

Additional observations from a re-analysis of the deposited data

Results flagged for a closer look

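Among 112 groups of 4 values looked at, 3 held a library far from the other 3 of its group, and chance alone flags about 1 in 20 groups. Col6a2 at 48 h was 1.19 CPM in animal 3 against 0.792 to 0.803 CPM in the other animals, still far below every 18 h library. Pou5f1 at 18 h was 0.206 CPM in animal 1 against 0.458 to 0.473 CPM. Fbln2 at 48 h in differentiation medium was 8.52 CPM in animal 4 against 10.3 to 10.5 CPM.

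The change from 18 h to 48 h differed between media, by edgeR's test of the difference, in the 12 genes named by rule. The log2 difference, stem cell medium minus differentiation medium, was 4.33 for Bmp3, 4.19 for Fmo1, 4.06 for Fbln2, 3.98 for Arhgef3, 3.92 for Gbp9 and 3.90 for Nrgn. In the other direction it was -6.19 for S100a6, -5.29 for Map1b, -5.04 for Hspb8, -3.84 for Gabrg3, -3.20 for Scg2 and -3.08 for Dach2.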

How the results depend on the processing

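The count of 9677 called genes was 8813 without the animal block (4308 higher and 4505 lower), 8842 with DESeq2 and 9582 to 9671 under the other alternatives, and 8322 to 9181 with 1 animal left out. The 4764 higher genes ranged from 4087 to 4457 and the 4913 lower from 4235 to 4724 with 1 animal left out, and the changes of at least 2-fold from 618 to 726 higher and 317 to 351 lower. With counts halved to fragments, the changes of at least 2-fold were fewer, 539 higher and 276 lower. On the deposited log2 values, which the transform compresses at low counts, limma gave 74 higher and 76 lower by at least 2-fold, against 665 and 329. The 10378 genes whose change differed between media were 9828 without the block, 10490 with DESeq2 and 8987 to 9662 with 1 animal left out (4336 to 4655 more positive and 4651 to 5055 more negative in stem cell medium).

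Over 182 results on named genes 1972 recomputed values kept their call, 28 lost it, 2 gained it and 0 reversed. Without the pairing by animal the calls of Pou5f1, Agpat4, Egln3, Dcx and Flt1 were lost.

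With 1 animal left out, the differences of 48 h minus 18 h in library measures were 1.43 to 7.90 M counts for the total, -0.274 to 0.0485 percentage points for the mitochondrial share (0.0485 without animal 1, against -0.144), -0.143 to 0.133 points for features overlapping ribosomal RNA (0.133 without animal 4, against -0.0480), 161 to 368 for features with a count, -0.519 to -0.305 points for the 50 most counted features and 0.0274 to 0.0352 for the TMM factor. The summed marker levels ranged from -1.79 to -1.22 CPM for microglia, -3.72 to -2.42 for endothelial and mural cells, 1.49 to 2.06 for fibroblasts and 18.8 to 20.6 for ependymal cells. The cause of these shifts was not tested. At 16 to 89 counts per library Pou5f1 is the least precise of the cassette genes.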
